A study of Ovis aries with 15 samples.

Results

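The cytosolic ribosomal proteins, the protein components of the ribosomes that translate nuclear messages, were followed through 5 stages of development of sheep skeletal muscle. Members were the genes whose probe sets carried as their only gene symbol RPL or RPS followed by a number, or RPSA, RPLP0 or RPLP2. The S6 kinase genes, whose symbols share the first letters, were left out. This gave 69 genes measured by 98 probe sets, of 9155 genes with a single symbol and 24016 probe sets on the array. Proteins of the large subunit accounted for 39 of the genes and proteins of the small subunit for 24, together 63 of the 78 subunit genes that were listed. The remaining 6 were the paralogues RPL3L, RPL7L1, RPL26L1 and RPS27L, the symbol RPL15P, which is that of a pseudogene, and RPS19BP1, which encodes a protein that binds RPS19 and is taken in by its name only. The symbol RPL15P was used as given, and whether its probe set reads the pseudogene or RPL15 itself was not tested. Each of the 19 genes with several probe sets was given by the set with the highest mean log2 signal. A filter on low signals, 50 or more on at least 3 of the 15 arrays, was passed by 68 of the 69 genes. The gene that did not pass was RPS19, whose signal lay between 4 and 68.8 on the 15 arrays.

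A ribosome has a small subunit, which decodes the message, and a large subunit, which forms the peptide bonds. Each subunit is built in the nucleolus from ribosomal RNA and about equal amounts of each of its proteins, so the messages of these proteins are usually made and translated together. Most of them begin with a terminal oligopyrimidine (TOP) tract, through which growth signals acting by way of mTOR control their translation, and the making of ribosomes is one of the ways by which a growing muscle fibre raises its capacity for protein synthesis.

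RNA came from the longissimus dorsi (LD), a large muscle of the back, of Dorset/Suffolk/Rambouillet cross-bred sheep. Fetuses were taken at 80, 100 and 120 d of development and lambs at 150 d, which falls in their first days of life, and at 230 d. No stage carried a treatment or a genetic change, and each of the 15 arrays held the RNA of 1 animal, with 3 animals per stage and no animal sampled more than once. By the account of the methods the animals were males, except for 1 female at 100 d and 1 at 120 d. The arrays were Affymetrix bovine genome arrays, so ovine RNA was measured with probes made for cattle, and the signals of different probe sets do not rank genes by abundance.

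The authors scaled the signals of every array to 200, which holds in the files for the trimmed mean. The summed signal differed between stages, at 8083970, 7893560, 8319700, 9987460 and 10074400 on average from 80 to 230 d. Ribosomal protein genes lay at the bright end of that scale, with 59 of the 69 among the 241 brightest probe sets. Markers of skeletal muscle were present at all stages, and the summed signal of 10 of the 12 listed was 91851 to 124623 at 80 d, 175899 to 281729 at 150 d and 264220 to 373731 at 230 d. The makeup of the tissue moved with age. Summed markers were 14432 to 24367 at 80 d, 275 to 587 at 150 d and 151 to 183 at 230 d for red blood cells (4 of 9), and 4369 to 4671, 1288 to 2891 and 1229 to 1398 at the same stages for proliferation (9 of 15). Endothelial markers (7 of 8) summed to 1999 to 3687 at 150 d, against 5973 to 6925 at 120 d, and fibroblast markers (all 8) to 44671 to 53140 at 230 d, against 68543 to 85654 at 80 d. Fat cell markers (4 of 6) averaged 183, 354, 554, 1337 and 641 over the 5 stages, highest at 150 d like most members, and leukocyte markers (9 of 11) averaged 1141, 1139, 1044, 945 and 1500. Hybridisation controls, RNA added in fixed amounts, averaged a signal of 1148, 1013, 991, 1570 and 1856 from 80 to 230 d, so that they were brighter on the postnatal arrays. Actin control signal at the 3′ end over that at the 5′ end, a sign of RNA quality, averaged 1.89, 1.53, 1.03, 0.910 and 0.995 over the same stages. The part of these shifts in the results below was not tested.

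The share of this summed signal that the 69 genes took together was lowest in the young lambs. It was 10.6, 9.19 and 9.80% at 80 d, 9.96, 9.25 and 8.39% at 100 d, 10.1, 9.19 and 9.31% at 120 d, 9.79, 10.2 and 10.7% at 150 d and 8.43, 8.16 and 8.16% at 230 d. The means were 9.86 ± 0.70, 9.20 ± 0.78, 9.52 ± 0.48, 10.2 ± 0.47 and 8.25 ± 0.15% (SD, n = 3). All 3 arrays at 230 d lay below all 3 at 150 d, and below every other array except 1 at 100 d. The summed signal of the 69 genes themselves averaged 798709, 727586, 792799, 1023440 and 830838 over the stages. At 230 d it was thus above the fetal means, and the lower share went with a higher summed signal of all probe sets. In whole muscle, fewer cells of a type and less RNA per cell cannot be told apart. The median signal of the family averaged 12954, 11898, 12713, 16177 and 12162 over the stages, lowest at 100 d and highest at 150 d.

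**Figure D1:**
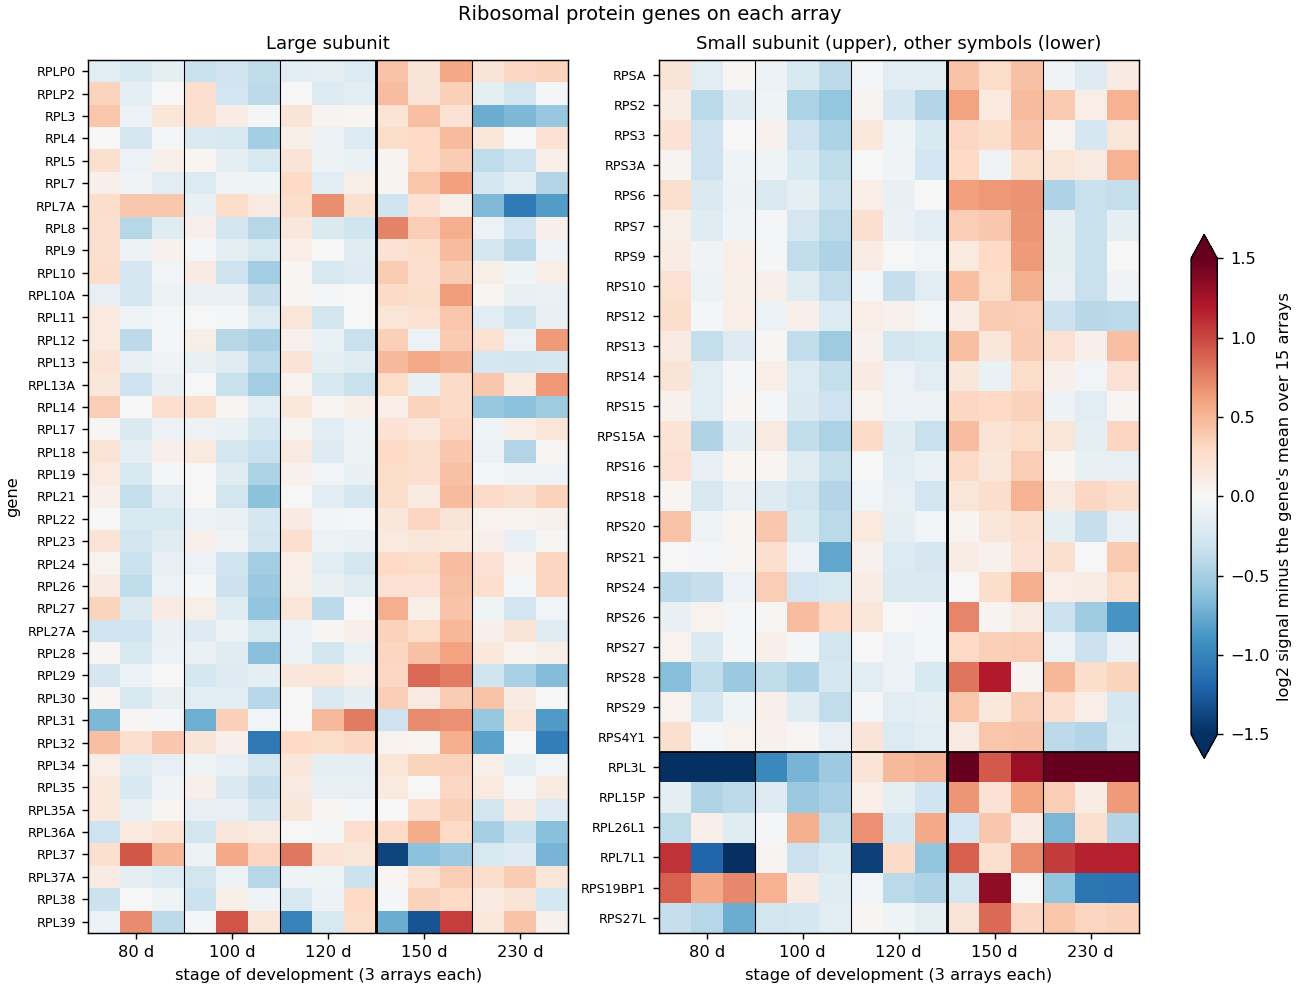
Signal of 68 ribosomal protein genes on the 15 arrays as log2 signal minus the gene's own mean over the arrays (colour), with the large subunit on the left and the small subunit and other symbols on the right, 3 arrays per stage and a thick line between fetal and postnatal arrays. The colour scale ends at 1.5 on either side, which RPL3L, RPL7L1 and single arrays of other genes exceed. Most genes share a red band at 150 d and RPL3L climbs through all stages. The band is seen on the MAS5 scaling as deposited, and under quantile normalization 6 of the 68 genes peak at 150 d.

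On the deposited scale most members peaked in the newborn, where 53 of the 68 genes (77.9%) had their highest stage mean of log2 signal, against 16.4% of all 15981 probe sets that passed the filter. The lowest stage was 100 d for 35 genes (51.5%, against 12.7% of all) and 230 d for 22 (32.4%, against 27.6%). With equal array medians 60 genes peaked at 150 d, but after quantile normalization 41 peaked at 80 d and with the hybridisation controls 58 peaked at 120 d, while 52 and 61 genes then had their lowest stage at 230 d. Genes of the family also followed each other across arrays. The correlation of a gene with the median of the other members over the 15 arrays was above 0.5 for 51 of the 68 genes (75%), and for 5.24% of the 15889 probe sets of other genes. These points share the arrays and their scaling. RPS7 was closest to the family, with r = 0.98, and RPL37 and RPL39 ran against it, with r = -0.51 and -0.32.

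Between fetal stages 1 member passed the test. At 100 d against 80 d the median log2 fold change of the 68 genes was -0.16, against 0.01 for all probe sets, and 1 gene, RPL3L, was higher and 0 were lower at an adjusted p under 0.01 in the limma fit, where 0.106% of all probe sets were higher and 0.0188% lower. At 120 d against 100 d the median was 0.13, against -0.04 for all, and 0 genes passed, with backgrounds of 0.0375% higher and 0.0188% lower. At an unadjusted p under 0.05, 1 gene was higher and 0 were lower in either interval, where 5.21% and 3.05% of all probe sets were so at 100 d against 80 d and 3.92% and 3.54% at 120 d against 100 d. The 3 arrays of the later stage lay above those of the earlier one for 2 genes and below for 4 at 100 d against 80 d, with 10.1% and 8.97% of all probe sets, and above for 11 and below for 0 at 120 d against 100 d, with 6.88% and 9.1%. Limma's trend and robust options passed 1 gene at 120 d against 100 d, and the moderated F statistic across the 4 intervals passed 11 members. Quantile normalization turned the median of the second interval to -0.042, and scaling to the hybridisation controls turned that of the first to 0.02.

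On the deposited scale most genes of the family had a higher value at 150 d than at 120 d. The 1 that passed the test was lower. The interval spans late gestation, birth and the first days of life, so when within it a gene changed cannot be told. At 150 d against 120 d the median log2 fold change was 0.36, against -0.15 for all probe sets, and 62 of the 68 genes had a positive value. By limma 0 genes were higher at the threshold and 1, RPL37, was lower, against 4.42% and 6.78% of all probe sets. At an unadjusted p under 0.05, 29 were higher, 42.6% of the members, against 12.9% of all probe sets, and 1 was lower, against 22.2%, and limma's trend and robust options passed 9 genes. The 3 arrays at 150 d lay above the 3 at 120 d for 42 genes, where 14.3% of all probe sets did so, and below for 2, against 23%. Both subunits had like values, with medians of 0.34 for 39 large and 0.38 for 23 small subunit genes. This direction depended on how the arrays were scaled. Relative to the median of all probe sets the family was at 0.52 on the deposited scale, a difference that no scaling by a constant can alter, and at -0.18 after quantile normalization. Unadjusted for that median, the family was at 0.55 with equal array medians, -0.19 after quantile normalization and -0.29 with the hybridisation controls, on which the median of all probe sets was itself at -0.81.

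After birth the family was lower on every scaling that was run. At 230 d against 150 d the median was -0.34, against 0.07 for all probe sets, and 58 of the 68 genes had a negative value. RPL29, RPS6 and RPL3 fell and 0 genes rose, against 1.08% lower and 0.945% higher among all probe sets. These 3 calls were lost with the hybridisation controls, without a filter and with the arrays of the compared stages only, and that of RPL29 also after quantile normalization. At an unadjusted p under 0.05, 26 genes (38.2%) were lower, against 10% of all probe sets, and 1 was higher, against 12.8%. The 230 d arrays lay below the 150 d arrays for 37 genes, against 9.94% of all, and above for 2, against 14%. The family median was -0.45 with equal array medians, -0.30 after quantile normalization, -0.59 with hybridisation controls and -0.35 when the arrays were scaled without the member probe sets, and 56 of the 68 genes were negative under all 5 scalings.

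**Figure D2:**
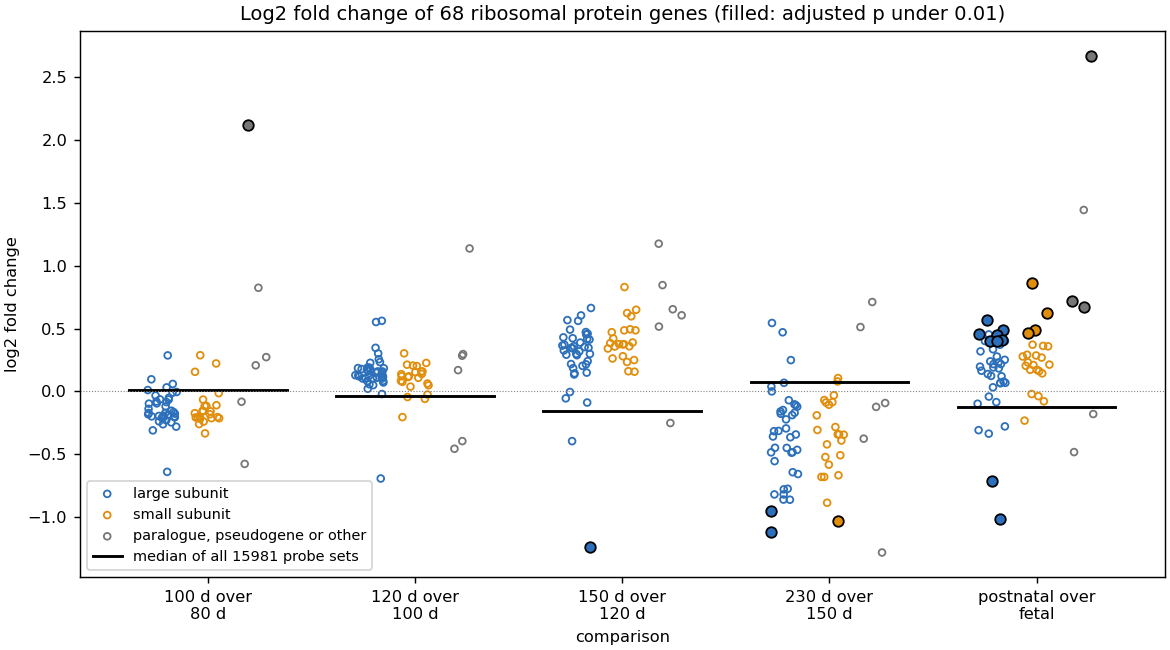
Log2 fold change (vertical axis) of 68 ribosomal protein genes in the 4 intervals and in postnatal against fetal stages on the deposited scale, 1 point per gene, blue for large subunit, orange for small subunit and grey for other symbols, filled where the adjusted p is under 0.01. The black line is the median of all 15981 probe sets: members lie mostly above it at 150 d over 120 d and mostly below it at 230 d over 150 d. Quantile normalization and the hybridisation controls turn the family median at 150 d over 120 d negative.

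With the 6 postnatal arrays against the 9 fetal arrays the same split between scalings appeared. On the deposited scale the median log2 fold change was 0.22, against -0.13 for all probe sets, and 14 genes were higher and 2 were lower, that is 20.6% and 2.94% of the members, against 13.3% and 21.3% of all probe sets. At an unadjusted p under 0.05, 29 were higher, against 22% of all probe sets, and 4 were lower, against 32.8%. Values did not overlap for 8 genes that were higher and 1 that was lower, where 6.79% and 10.5% of all probe sets did not. With equal array medians 28 genes were higher and 2 lower. After quantile normalization 2 were higher and 34 lower, and with hybridisation controls 1 was higher and 20 were lower. Among the members 12 of 68 kept 1 direction under all 5 scalings, 4 of them higher and 8 lower. RPL3L was higher, and RPL37 and RPL7A were lower, past the threshold in all 5. Of the 16 genes called as deposited, 4 were called after quantile normalization, these 3 and RPS28, and 3 with the hybridisation controls.

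**Figure D3:**
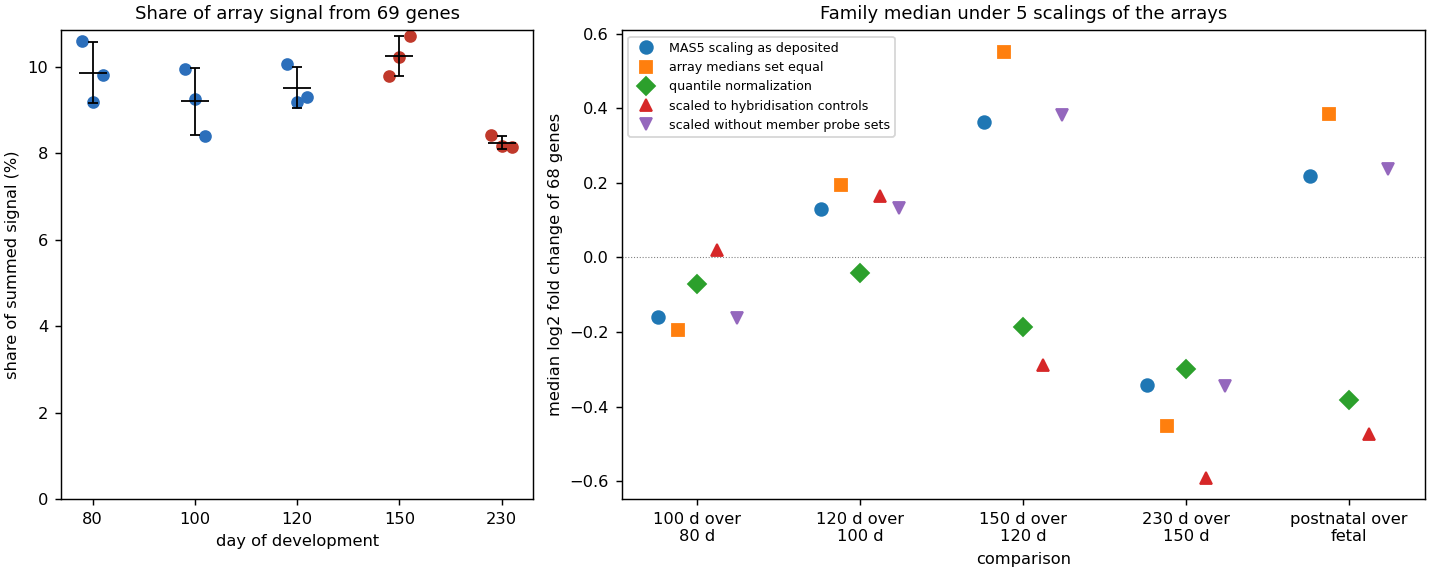
Left, share of the summed signal of each array taken by 69 ribosomal protein genes (percent) by day of development, 1 point per array, blue fetal and red postnatal, with mean and SD of 3 arrays. Right, median log2 fold change of 68 genes in each comparison under 5 scalings of the arrays: the points at 230 d over 150 d lie between -0.59 and -0.30, while those at 150 d over 120 d and postnatal over fetal lie on both sides of 0.

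RPL3L moved most. It is a paralogue of RPL3 that in mouse and human is made mainly in heart and skeletal muscle and can take the place of RPL3, which lies near the centre that forms peptide bonds. Its signal was 69.1, 76.7 and 88.3 at 80 d, 288, 348 and 386 at 100 d, 646, 793 and 806 at 120 d, 1634, 1072 and 1371 at 150 d and 2000, 2636 and 2003 at 230 d. No stage overlapped with its neighbour. The log2 fold change was 2.12 ± 0.21 (SE) at 100 d over 80 d, with an adjusted p of 0.00055. It was 1.14 at 120 d over 100 d, 0.85 at 150 d over 120 d and 0.71 at 230 d over 150 d, with adjusted p of 0.061, 0.012 and 0.064, none of which passed. In postnatal over fetal muscle it was 2.67 ± 0.14, with an adjusted p of 2.1e-08, and between 1.98 and 2.84 over the 5 scalings.

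RPL3 itself fell between the newborn and the young lamb. Its signal was 18873, 13282 and 16023 at 80 d, 16677, 15189 and 13911 at 100 d, 16108, 14570 and 14395 at 120 d, 16269, 19354 and 16404 at 150 d and 8455, 8852 and 9481 at 230 d. The 3 arrays at 230 d lay below all other arrays, among which the stages overlapped except 150 d and 120 d. At 230 d over 150 d RPL3 fell by 0.95 ± 0.17 (SE) on the log2 scale, with an adjusted p of 0.0072. That call was lost in 12 of the 15 fits that left out 1 array, with adjusted p up to 0.028, and with a replicate block, while the change stayed between -0.999 and -0.873 in those 15 fits. Within single arrays, where scaling by a constant cancels, the log2 signal of RPL3L minus that of RPL3 averaged -7.68 ± 0.36, -5.49 ± 0.34, -4.33 ± 0.27, -3.69 ± 0.44 and -2.02 ± 0.25 from 80 to 230 d (SD, n = 3). It increased between stages without overlap except at 120 d and 150 d, where 1 array at 150 d stood at -4.17 against -4.64, -4.20 and -4.16 at 120 d. The signals come from 2 probe sets, so only their shift and not their level can be read.

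**Figure D4:**
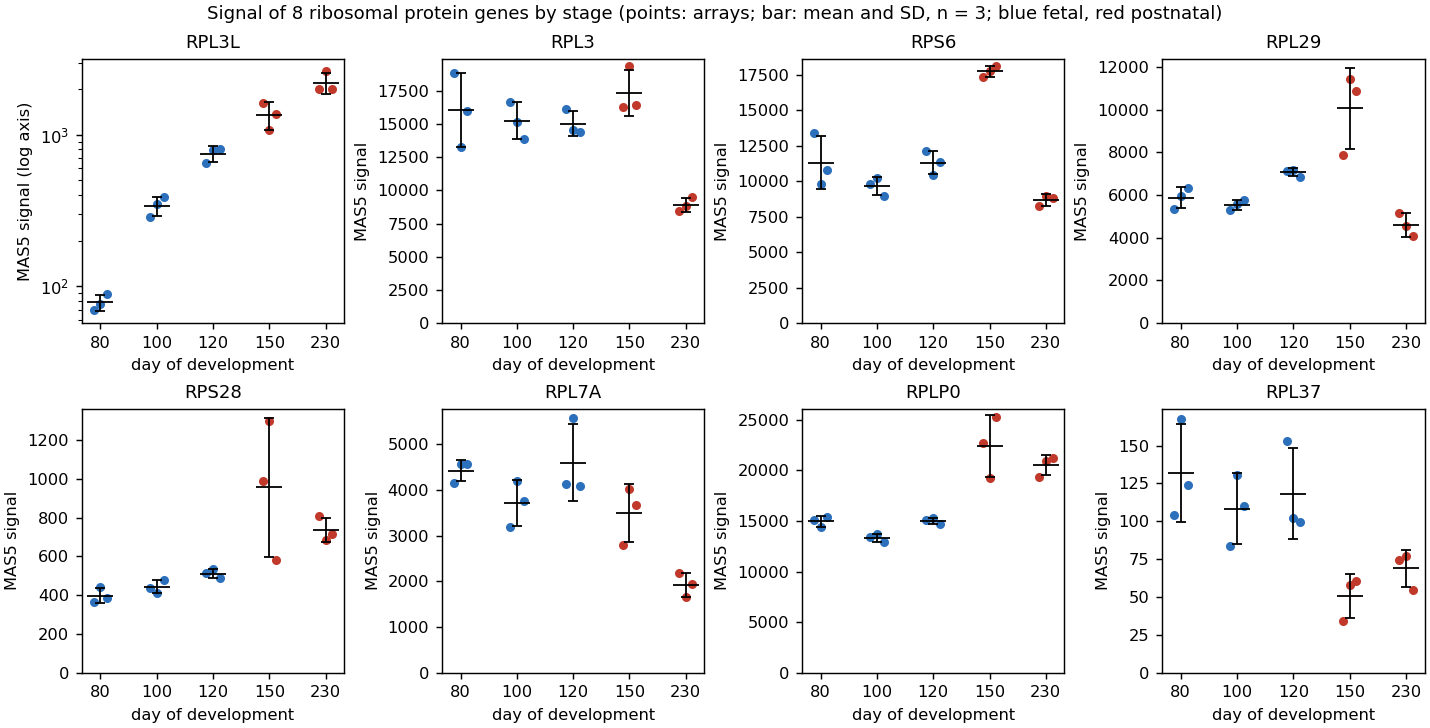
MAS5 signal of 8 ribosomal protein genes by day of development, 1 point per array, blue fetal and red postnatal, with mean and SD of 3 arrays; RPL3L is on a log axis, the others start at 0. RPL3L lies at 2000 to 2636 at 230 d, against 69.1 to 88.3 at 80 d, whereas RPL3, RPS6 and RPL29 lie lower at 230 d than at 150 d on every array.

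The stalk of the large subunit recruits the elongation factors, and RPLP0 is its base. RPLP0 was 15068, 14362 and 15423 at 80 d, 13375, 13741 and 12916 at 100 d, 15133, 15281 and 14693 at 120 d, 22754, 19238 and 25297 at 150 d and 19366, 20961 and 21222 at 230 d. The 6 postnatal arrays lay above the 9 fetal arrays. In postnatal over fetal muscle the log2 fold change was 0.57 ± 0.10 (SE), with an adjusted p of 0.00038, and a further probe set of the gene gave 0.41, with an adjusted p of 0.028. The sign did not hold on other scales, with -0.014 after quantile normalization and -0.12 with hybridisation controls. RPLP2, another stalk protein, averaged 7061, 6188, 6176, 8505 and 6083 over the 5 stages and passed in no comparison, with 0.46 at 150 d over 120 d and -0.48 at 230 d over 150 d.

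RPL29, a large subunit protein whose loss makes mice small, was highest in the newborn on the deposited scale. It read 5335, 5967 and 6327 at 80 d, 5305, 5583 and 5762 at 100 d, 7142, 7191 and 6845 at 120 d, 7884, 11445 and 10847 at 150 d and 5180, 4547 and 4069 at 230 d. At 230 d all arrays lay below those at 150 d, and RPL29 fell by 1.12 ± 0.18 (SE) on the log2 scale at 230 d over 150 d, with an adjusted p of 0.0039. The call was lost in 4 of the 15 fits without 1 array, with adjusted p up to 0.016.

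Besides RPL3, the large subunit genes that left the family downwards after birth were RPL7A, RPL14 and RPL37. RPL7A was 4149, 4558 and 4562 at 80 d, 3195, 4192 and 3747 at 100 d, 4132, 5579 and 4083 at 120 d, 2796, 4025 and 3680 at 150 d and 2172, 1651 and 1931 at 230 d. The 230 d arrays were the lowest, and 150 d overlapped with 100 d. In postnatal over fetal muscle RPL7A fell by 0.71 ± 0.13 (SE) on the log2 scale, with an adjusted p of 0.00067. RPL14 had medians of 10798 over the postnatal and 13069 over the fetal arrays, ranges of 7975 to 15485 and 10972 to 15841 that overlapped, and a log2 fold change of -0.28 with an adjusted p of 0.047. RPL37 was dim, at 34 to 77.4 (median 59.1) on the postnatal and 84 to 168 (median 110) on the fetal arrays, with no overlap. It fell by 1.02 ± 0.19 (SE) on the log2 scale, with an adjusted p of 0.00069. This size is not exact, since the postnatal signals reached below 50. At 150 d over 120 d the log2 fold change of RPL37 was -1.24 with an adjusted p of 0.0092. That value is not read as a size, since the geometric mean at 150 d lay under 50. On the deposited scale the geometric mean at 120 d was 2.32-fold above that limit. This last call held in 2 of the 15 fits without 1 array and under 1 of the 4 other scalings.

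None of the remaining large subunit genes passed between adjacent stages by the probe set used for it. They followed the family to different degrees, with r = 0.69 for RPL7, 0.48 for RPL13A, 0.075 for RPL38 and -0.32 for RPL39. RPL4 and RPL24, of the highest signal among the members, averaged 20100 and 19126 at 80 d, 27185 and 26452 at 150 d and 23319 and 23914 at 230 d, and in postnatal over fetal muscle they rose by 0.40 ± 0.11 and 0.45 ± 0.12 (SE) on the log2 scale, with adjusted p of 0.0077 and 0.0065. Both calls were lost in most fits without 1 array, 12 of 15 for RPL4 and 11 of 15 for RPL24, and both signs turned after quantile normalization and with the hybridisation controls. RPL4 lines part of the tunnel through which the new chain leaves the ribosome. RPL10, which joins the large subunit late in its assembly, averaged 16407, 20684 and 16880 at 80, 150 and 230 d. RPL22, an RNA-binding protein at the surface, averaged 13821, 18081 and 15977 at those stages. RPL13A was highest at 230 d, at 25957, 21800 and 30761, against 23730, 18167 and 24018 at 150 d. RPL7 averaged 6369 at 230 d, against 10040 at 150 d, without overlap, and RPL38, which in mouse affects translation of Hox messages, averaged 11078 at 230 d, against 12575 at 150 d. RPL39, a small protein of the exit tunnel, was the most variable of the large subunit, with 4195, 2879 and 14496 at 150 d. Its SD between replicates was 0.71 on the log2 scale, where the median over the 68 genes was 0.18.

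In the small subunit RPS6, the substrate of the S6 kinases downstream of mTOR, had the clearest peak on the deposited scale. It was 13386, 9800 and 10803 at 80 d, 9795, 10233 and 8991 at 100 d, 12137, 10473 and 11368 at 120 d, 17364, 17764 and 18121 at 150 d and 8235, 9001 and 8845 at 230 d. The 150 d arrays lay above all others. RPS6 fell by 1.03 ± 0.16 (SE) on the log2 scale at 230 d over 150 d, with an adjusted p of 0.0034, and this change was negative under all 5 scalings. At 150 d over 120 d its log2 fold change was 0.65 with an adjusted p of 0.012, just outside the threshold. With the hybridisation controls the median of all probe sets in that interval was -0.81, against -0.15 as deposited. Whether RPS6 rose at all in that interval therefore depends on the scaling. Leaving out 1 array lost the call at 230 d in 4 of 15 fits, with adjusted p up to 0.012.

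RPS28 was the small subunit gene most raised after birth. It was 367, 443 and 386 at 80 d, 439, 412 and 480 at 100 d, 513, 534 and 487 at 120 d, 990, 1298 and 584 at 150 d and 807, 686 and 717 at 230 d. Every postnatal array exceeded every fetal array, and those at 150 d were widely spread. The log2 fold change of postnatal over fetal muscle was 0.87 ± 0.16 (SE), with an adjusted p of 0.00058, and it was positive under all 5 scalings, down to 0.18 with the hybridisation controls, where the call was lost. RPS2, which lies at the entrance of the message channel, had medians of 21204 on the postnatal and 13225 on the fetal arrays, with ranges of 16851 to 23966 and 10543 to 16951 that overlapped by 1 array on either side. It rose by 0.62 ± 0.14 (SE) on the log2 scale, with an adjusted p of 0.0032. With the hybridisation controls its log2 fold change was -0.070. RPS13 averaged 24089 at 150 d and 17229 at 120 d and rose in postnatal over fetal muscle by 0.49 ± 0.13 (SE), with an adjusted p of 0.0088. RPS13 was at -0.14 after quantile normalization and -0.21 with the hybridisation controls, and its call was lost in 10 of the 15 fits without 1 array. RPSA, also known as a receptor for laminin, averaged 10545, 14864 and 11133 at 120, 150 and 230 d without passing in any comparison. RPS3A likewise passed in none, at 23686 on average at 230 d, against 21968 at 150 d.

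Among the other symbols, RPS27L, a paralogue of RPS27 that p53 induces in human cells, was 3554, 3347 and 2690 at 80 d, 3734, 3752 and 4033 at 100 d, 4595, 4304 and 4068 at 120 d, 5151, 8163 and 5603 at 150 d and 6016, 5627 and 5752 at 230 d. Stages did not overlap up to 150 d, and 150 d and 230 d overlapped. The log2 fold change of postnatal over fetal muscle was 0.68 ± 0.12 (SE), with an adjusted p of 0.00064, and -0.017 with the hybridisation controls. The call of RPS27L was lost there, after quantile normalization and with the mean of a gene's probe sets. The probe set named RPL15P had medians of 18776 on the postnatal and 10916 on the fetal arrays, did not overlap between them and rose by 0.72 ± 0.13 (SE) on the log2 scale, with an adjusted p of 0.00067. That call was lost after quantile normalization, at 0.13, with the hybridisation controls, at 0.024, and with the mean of the probe sets of that symbol, at -0.028. Another probe set of that symbol, with a mean signal of 818, fell by 1.14 in the same comparison, with an adjusted p of 0.00051. RPL26L1, a paralogue of RPL26, lay between 313 and 813 with overlap at every stage. RPL7L1, a nucleolar protein of large subunit assembly, was near or under the limit of 50 in the fetus, with single arrays from 8.1 to 127, and at 124, 134 and 134 at 230 d against 111, 70.6 and 97.3 at 150 d. Its log2 fold change of 1.44 in postnatal over fetal muscle did not pass, with an adjusted p of 0.022. RPS19BP1 read 1146, 908 and 1015 at 80 d, 508, 1549 and 613 at 150 d and 407, 289 and 286 at 230 d. It did not pass between 230 d and 150 d, with a log2 fold change of -1.28 and an adjusted p of 0.05, and 1 of the 3 animals at 150 d set its mean there.

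To see which genes left the family, the median log2 signal of the members on each array was subtracted before the fit, which removes any scaling by a constant. At 150 d over 120 d RPL37 alone passed, on the lower side, where 1.98% of all probe sets were higher and 12.9% lower. No size is given, since its geometric mean at 150 d lay under 50, and after quantile normalization it did not pass, with an adjusted p of 0.051. In postnatal over fetal muscle 4 members were higher and 4 lower, against 9.44% and 25.6% of all probe sets. Those above the family were RPL3L by 2.5, RPS28 by 0.70, RPL15P by 0.55 and RPS2 by 0.45 on the log2 scale, with adjusted p of 4.0e-07, 0.0089, 0.0020 and 0.0068. Those below were RPL37 at -1.18, RPL7A at -0.88, RPL3 at -0.48 and RPL14 at -0.45, with adjusted p of 0.00041, 0.00054, 0.0033 and 0.0032. The value of RPL37 is not exact, since its postnatal signals reached below 50. After quantile normalization 7 of these 8 genes passed again in postnatal over fetal muscle and RPL37 did not, with an adjusted p of 0.055. With the mean of a gene's probe sets 5 of the 8 passed. RPL15P, RPL3 and RPS2 were then lost, and RPL24 and RPL9 passed besides. With the moderated F statistic 4 of the 8 passed, and RPL14, RPL15P, RPS2 and RPS28 were lost. RPS2 and RPS28 were lost in several fits without 1 array, and without replicate 1 at 230 d RPL3 was lost as well, which left 5.

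Further probe sets of the members often differed in sign from the set used. Of 24 that passed the filter, in addition to the 1 used for each gene, 14 had the sign of the gene's own set at 230 d over 150 d, 10 at 150 d over 120 d and 10 in postnatal over fetal muscle. Past the threshold 4 of the 24 were lower and 0 higher in postnatal over fetal muscle, where 21.3% and 13.3% of all probe sets were. Among these a set of RPL24 with a mean signal of 1366 fell by 1.27 on the log2 scale, opposite to the set used for that gene. At 150 d over 120 d that further set was at -1.46, with an adjusted p of 0.0020. It was the 1 of the 24 past the threshold there, where 6.78% of all probe sets were lower. Many further sets were dim, with mean signals under 200.

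Genes that work with the ribosome were set beside the family on the same fit. FAU, a ribosomal protein made as a fusion, and RACK1, a scaffold on the small subunit, had log2 fold changes of 0.37 for FAU and 0.35 for RACK1 in postnatal over fetal muscle and passed in no comparison on the deposited scale. Both passed in that one with equal array medians, and their values turned to -0.19 and -0.24 after quantile normalization and -0.32 and -0.34 with the hybridisation controls. Of 13 other TOP genes, mostly translation factors, 1 was higher and 0 lower at 150 d over 120 d, and 4 were higher and 1 lower in postnatal over fetal muscle, against 4.42% and 6.78% of all probe sets in the first comparison and 13.3% and 21.3% in the second. In the second, 0 were higher and 6 lower both after quantile normalization and with the hybridisation controls. EEF1G, a subunit of the elongation factor that delivers aminoacyl-tRNA, was 25777, 20156 and 24083 at 150 d, against 13998, 12596 and 11929 at 120 d, and its log2 fold change of 0.86 ± 0.17 (SE), with an adjusted p of 0.0041, kept its sign under all 5 scalings but did not pass after quantile normalization or with the hybridisation controls, with adjusted p of 0.059 and 0.48. TPT1, a translationally controlled growth protein, rose by 0.83 in postnatal over fetal muscle, with an adjusted p of 8.1e-05, and NAP1L1, a histone chaperone, fell by 0.67, with an adjusted p of 0.00062. The sign of TPT1 turned to -0.07 after quantile normalization.

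Of 42 genes of ribosome assembly, 3 (7.14%) were higher and 0 lower at 150 d over 120 d, against 4.42% and 6.78% of all probe sets, with a median of 0.24. These were LTV1 and NOP16, assembly factors of the small and large subunit, at 1.15 and 0.99, and IMP3, of the small subunit processome, at 1.02, with adjusted p of 0.0065, 0.0071 and 0.0061. Postnatal over fetal, 4 were higher, among them SBDS, which releases the large subunit for use, at 0.97 and NHP2 at 1.40, and 2 were lower, GAR1 at -0.59 and DDX52 at -0.59, that is 9.52% and 4.76%, against 13.3% and 21.3% of all probe sets. With the hybridisation controls 0 of the 42 were higher and 1 lower at 150 d over 120 d, with a median of -0.41, and 0 were higher and 13 lower postnatally, with a median of -0.56. After quantile normalization 4 were higher and 0 lower in the first comparison, with a median of 0.33. In the second 8 were higher and 0 lower, with a median of 0.24. Of 9 genes of RNA polymerase I, which makes ribosomal RNA, 1 was lower and 0 higher in postnatal over fetal muscle. The gene that was lower (11.1%, against 21.3% of all probe sets) was POLR1E, with a log2 fold change of -1.95. That value cannot be read as a size, since the POLR1E signals at 230 d were 41.5, 5.2 and 46.8, under the limit of 50. With the hybridisation controls 6 of the 9 were lower, and after quantile normalization 1 was. Of 7 genes listed for growth signalling, MYC and MAX among them, 3 were higher and 0 lower in postnatal over fetal muscle. Those higher were EIF4EBP1, LARP4 and RPTOR, at 0.66, 0.62 and 0.57, where 13.3% of all probe sets were higher and 21.3% lower. With the hybridisation controls 0 were higher and 1 lower, and the median turned to -0.38. After quantile normalization 4 were higher and 0 lower, with a median of 0.48. No gene of these 3 lists passed between the fetal stages on the deposited scale. The mitochondrial ribosomal proteins, of the separate ribosome in mitochondria, had a larger difference: of 66 genes 19 (28.8%) were higher and 0 lower at 150 d over 120 d, with a median log2 fold change of 0.91, and 43 (65.2%) were higher and 0 lower in postnatal over fetal muscle, where 4.42% and 13.3% of all probe sets were higher. With the hybridisation controls 1 was higher in the first comparison, and 9 were higher and 6 lower in the second. Their median stayed positive under all 5 scalings, at 0.26 at 150 d over 120 d with the hybridisation controls and 0.96 after quantile normalization.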

How the data were processed

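Biotin-labelled LD muscle RNA of 15 sheep was hybridised to 15 arrays. The intensities deposited by the authors are MAS5 signals on a linear scale. MAS5 subtracted background, combined the perfect match and mismatch probes of a set and brought each array to 200, which the trimmed mean of each file meets. No source used here gives its version. The number of arrays limits the precision. Control probe sets (112) were removed, and probe sets were retained where 3 or more arrays gave a signal of 0.25 of the trimmed mean (50) or above, which left 15981 of 24016. Values under 0.1 were set to 0.1 (2 values). Stages came from the sample labels. Contrasts of stage means of log2 signal were fitted with limma 3.58.1 in R 4.3.3 (lmFit, eBayes) on all 15 arrays, with 10 residual degrees of freedom, without covariates since the labels do not give sex, and with Benjamini-Hochberg adjustment over all kept probe sets at 0.01. Fold changes are later over earlier stage. The fit was tested on simulated data. Of the probe sets, 13292 had 1 gene symbol, 86 several and 10638 none in the platform annotation, and 65 of the 69 member symbols are in the sheep RefSeq gene table.

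Named genes were the members past a test and the largest 5 (10 at birth) in either direction among them, the 5 brightest and 5 dimmest, a fixed set of paralogues and well studied members, those past the test relative to the family, and up to 4 genes of each other list. RPS7 was named after its value was seen. Members and lists were chosen with earlier results of these data known. Alternatives were 4 other scalings, an offset of 16 before log2, no filter and a stricter one (100), limma's trend and robust options, a moderated F statistic, arrays of the compared stages only, a replicate block, the mean of a gene's probe sets, and leaving out each array. Sequences were not used here. Python 3.11.15 with matplotlib 3.10.9 made the figures.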

Additional observations from a re-analysis of the deposited data

How the results depend on the processing

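The change of the family at 230 d over 150 d and that of RPL3L at 100 d over 80 d and in postnatal over fetal muscle kept their direction under all alternatives. Other results depended on the scaling. Relative to the median of all probe sets, the family median after quantile normalization was -0.032 at 120 d over 100 d, -0.18 at 150 d over 120 d and -0.38 in postnatal over fetal muscle, and without a filter it was 0.19 in the last comparison. Quantile normalization also reversed RPL24 (-0.24), RPL29 (-0.50), RPL4 (-0.30), RPL7 (-0.60), RPLP0 (-0.014), RPLP2 (-0.47), RPS13 (-0.14), RPS6 (-0.41) and RPSA (-0.38) in postnatal over fetal muscle. The hybridisation controls reversed RPL24 (-0.24), RPL4 (-0.29), RPL7 (-0.63), RPLP0 (-0.12), RPS13 (-0.21), RPS2 (-0.070) and RPS27L (-0.017), and the mean of a gene's probe sets reversed RPL15P (-0.028) and RPL24 (-0.41). The causes were not tested.

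At 150 d over 120 d, where 1 gene passed, 8 passed with equal array medians, 0 after quantile normalization, 2 with the hybridisation controls, 0 with scaling without the members, 2 with the offset, 0 without a filter, 4 with the stricter filter, 9 with the trend and robust options and 0 with the arrays of the compared stages only. At 230 d over 150 d, where 3 passed, 2 passed after quantile normalization, 0 with the hybridisation controls, 0 without a filter, 5 with the stricter filter, 11 with the trend and robust options and 0 with only the compared arrays. In postnatal over fetal muscle, where 16 passed, 30 passed with equal array medians, 36 after quantile normalization and 9 without a filter. With the compared arrays only, 0 passed at 100 d over 80 d, and with the trend and robust options 1 passed at 120 d over 100 d. The moderated F statistic, which is not specific to an interval, passed 11 in each interval. Of all probe sets called in postnatal over fetal muscle 38.4% were higher as deposited, 52.6% with equal array medians and 7.47% with the hybridisation controls. At 150 d over 120 d these shares were 39.5%, 61.3% and 4.02%, with 48.2% after quantile normalization. Relative to the family median, the count at 150 d over 120 d was 2 with the mean of probe sets, 4 with the F statistic and 0 with the compared arrays, and in postnatal over fetal muscle it was 19 with trend and robust options and 4 with the F statistic.

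Replicate numbers only name the animals, which differ between stages. Residuals of the same number correlated at 0.05 on average (from -0.05 to 0.21), and those of different numbers at -0.02. With a replicate block 0 genes passed at 150 d over 120 d, where 1 had, and 15 in postnatal over fetal muscle, 14 of them among the 16.

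Leaving out 1 array gave 0 to 1 calls at 150 d over 120 d, 0 to 3 at 230 d over 150 d and 9 to 15 in postnatal over fetal muscle, and relative to the family 0 to 1 and 5 to 8. The 230 d count changed by over 1.5 times without replicates 2 and 3 at 150 d and without any array at 230 d, and the postnatal count without replicates 2 and 3 at 80, 100 and 120 d, replicate 3 at 150 d and replicate 1 at 230 d. That at 150 d over 120 d was 0 without any array at 80 d or 120 d, replicates 2 or 3 at 100 d, replicate 1 at 150 d, or replicates 1 or 2 at 230 d, and relative to the family without any array at 120 d or replicate 1 at 150 d. The count relative to the family in postnatal muscle was 5 without replicate 1 at 230 d.

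The share of array signal after quantile normalization was 10.8, 10.5, 10.2, 9.02 and 7.45% from 80 to 230 d, and with the mean of a gene's probe sets 8.44, 7.91, 8.14, 8.72 and 7.07%. With the stricter filter it was 8.59% at 230 d. With the summed signal of the kept probe sets alone as the base, chosen after seeing the data, it was 10.02, 9.34, 9.66, 10.4 and 8.38%. Low signals, as for RPL37 and RPL7L1, limit what can be said of single genes.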
